A study of Homo sapiens with 6 samples.

Results

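10 circular RNAs that have been reported as gastric cancer biomarkers were looked up by their circBase IDs among the RNA probes of an array comparison of gastric cancer cells with and without oxymatrine. Every probe whose ID began with one of the 10 IDs was taken. This gave 3 probes, 1 for each of hsa_circ_0000096, hsa_circ_0000190 and hsa_circ_0006633, among 35343 circBase probes and 175075 RNA probes in all. The other 7 IDs (hsa_circ_0000181, hsa_circ_0000520, hsa_circ_0000745, hsa_circ_0001649, hsa_circ_0001895, hsa_circ_0003159 and hsa_circ_0014717) were not analysed here. Each of the 35343 circBase probes carried an ID of its own, and 0 IDs had a second probe, so no circRNA could be checked with a second probe.

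The samples were 3 cultures of HGC-27 exposed for 48 h to 2.64 mg/mL oxymatrine (OMT), a quinolizidine alkaloid found in Sophora plants, and 3 untreated control cultures of the same line. HGC-27 is an established human gastric cancer line, and all 6 cultures were this 1 line, grown in medium with fetal bovine serum. The series calls the 3 samples of a group biological replicates, and the sources used here do not say whether the controls received a vehicle. RNA was read on single-colour Agilent arrays. None of the RNA probes could be paired with a gene name, so the line could not be checked against its marker genes.

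Circular RNAs (circRNAs) form when a downstream splice donor joins an upstream acceptor, which closes 1 or more exons into a ring. Without free ends they resist exonucleases and tend to outlast their linear counterparts, so they can be measured in plasma and gastric juice as well as in tissue. This is why circRNAs are studied as tumour markers, and those listed here have mostly been described as lower in gastric tumours than in adjacent mucosa. A 48 h treatment of cultured cells is a different comparison from tumour against mucosa. Whether each of these probes reads only the ring or also the linear RNA was not tested. The levels are normalized intensities of RNA from whole cultures, so neither the number of cells nor the amount of RNA per cell can be read from them.

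The deposited log2 levels differ in distribution between the groups, which bears on every value given for the 3 circRNAs. Sorted from low to high, they were identical on the 3 OMT arrays and identical on the 3 control arrays, but differed by up to 1.57 between the groups. In these levels an effect of OMT and one of normalizing each group by itself cannot be told apart. Replicates of a group share a single distribution, so the deposited spreads hold no array-wide differences between replicates. An array-wide offset between OMT and control is kept. The deposited SD, standard errors, p-values and non-overlap of groups thus do not measure the full replicate variation, and can make a change look firmer than it is. The levels are therefore given in 2 forms, the deposited one and one in which all 6 arrays were brought to a single distribution by quantile normalization, called joint normalization. The median change of all RNA probes, OMT minus control, was -0.36 as deposited and 0.04 after joint normalization. Among circBase probes it was -0.88 and -0.15. The rank of a probe within its own array is also given, because a step that only reshapes an array's distribution leaves ranks as they are.

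All 3 circRNA probes were lower in OMT as deposited, but none of them was lower after joint normalization. As deposited the changes were -0.28 for hsa_circ_0000096, -0.63 for hsa_circ_0000190 and -0.81 for hsa_circ_0006633 (log2, n = 3 arrays per group), each with a limma adjusted p below the threshold of 0.05. After joint normalization hsa_circ_0000096 was higher in OMT by 0.40, and the other two probes did not pass the test. As background, 62.5% of circBase probes and 38.4% of all RNA probes were called lower in OMT as deposited. After joint normalization 21.9% of circBase probes and 20.6% of all RNA probes were called higher, and 34.2% and 18.7% lower.

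All 3 probes were read above background. The dark corner spot, a control spot not meant to bind labelled RNA, served as the floor, and each probe lay above it on all 6 arrays, as did 81.2% of circBase probes. On OMT arrays this spot read 1.18 to 1.33, and on control arrays 1.51 to 1.69 (deposited log2 level). The floor itself was thus lower on every OMT array than on any control array, by 0.38 in the mean. After joint normalization it read 1.29 to 1.57 on OMT arrays and 1.36 to 1.49 on control arrays, which overlap. Its part in the results for the 3 probes was not tested. The structural negative spot, another control spot, had a mean of 1.05 ± 0.02 in OMT against 1.07 ± 0.007 in controls (SD over 3 arrays each).

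hsa_circ_0000096 was called in opposite directions under the 2 scalings. Its deposited log2 levels were 7.71, 7.82 and 7.76 on the OMT arrays and 8.03, 8.07 and 8.03 on the control arrays. Every OMT value lay below every control value, as for 68.9% of circBase probes. The spread inside either group was small, but as deposited it leaves out array-wide differences between replicates. The mean was 7.76 ± 0.05 in OMT against 8.04 ± 0.03 in controls (SD, n = 3 each), a change of -0.28 with a standard error of 0.07 that puts OMT at 82.5% of controls (limma, Benjamini-Hochberg adjusted p = 0.0215). This call was lost when any 1 control array was left out: the changes were -0.29, -0.26 and -0.29 without control replicates 1, 2 and 3, with adjusted p of 0.0614, 0.0778 and 0.0569.

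After joint normalization the levels of hsa_circ_0000096 were 8.05, 8.15 and 8.10 in OMT and 7.68, 7.73 and 7.68 in controls. Now every OMT value lay above every control value, as for 28% of circBase probes under this scaling. The mean was 8.10 ± 0.05 in OMT against 7.70 ± 0.03 in controls (SD), giving a change of 0.40 with a 95% confidence interval of 0.23 to 0.57 (limma adjusted p = 0.00667, n = 3 per group). With every array instead centred on its 75th percentile, the probe was higher in OMT by 0.53 (limma adjusted p = 0.00155). Under centring 30.4% of circBase probes were called higher and 35.9% lower, and the median change over all RNA probes was 0.44. Centring shifts all probes of an array alike, so it moved every deposited change by the same amount. The probe's change lay above the median over all RNA probes, by 0.09 as deposited or centred and by 0.37 under joint normalization. For hsa_circ_0000190 the same distance from the median was -0.26 and -0.03, and for hsa_circ_0006633 it was -0.45 and 0.09.

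hsa_circ_0000190 was lower in OMT as deposited and had the same mean in both groups, to 2 decimals, after joint normalization. Its deposited levels were 11.20, 10.84 and 10.98 on the OMT arrays and 11.64, 11.65 and 11.61 on the control arrays. The groups did not overlap, with every OMT value below every control value, as for 68.9% of circBase probes. The OMT arrays varied more. The mean was 11.01 ± 0.18 in OMT against 11.63 ± 0.02 in controls (SD, n = 3 each), with a change of -0.63 with a standard error of 0.11, or 64.8% of controls (limma adjusted p = 0.00657). For comparison, the median SD of circBase probes was 0.19 among OMT arrays and 0.10 among control arrays. The wider spread of this probe in OMT was thus close to what is usual for circBase probes in that group, while its control arrays lay closer together than usual.

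After joint normalization hsa_circ_0000190 stood at 11.52, 11.15 and 11.29 in OMT and 11.33, 11.33 and 11.29 in controls. The control values fell inside the range of the OMT values. The mean was 11.32 ± 0.19 in OMT and 11.32 ± 0.02 in controls, and the change was 0.0057 with a 95% interval of -0.28 to 0.29 (limma adjusted p = 0.975, n = 3 per group). The interval allows a change of either sign up to those bounds. Centring gave 0.18, which also missed the threshold (adjusted p = 0.207).

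hsa_circ_0006633 had the most negative deposited change of the 3. Its deposited levels were 5.16, 4.88 and 5.12 in OMT and 5.67, 5.89 and 6.04 in controls. Every OMT value lay below every control value, as for 68.9% of circBase probes. The mean was 5.05 ± 0.15 in OMT against 5.87 ± 0.19 in controls (SD, n = 3 each), or a change of -0.81 with a standard error of 0.14, or 56.9% of controls (limma adjusted p = 0.00529). After joint normalization the levels were 5.62, 5.36 and 5.58 in OMT and 5.18, 5.42 and 5.58 in controls, and the groups overlapped. The change was then 0.13 with a 95% interval of -0.22 to 0.48 (limma adjusted p = 0.523, n = 3 per group), and after centring -0.0056 (adjusted p = 0.974).

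**Figure D1:**
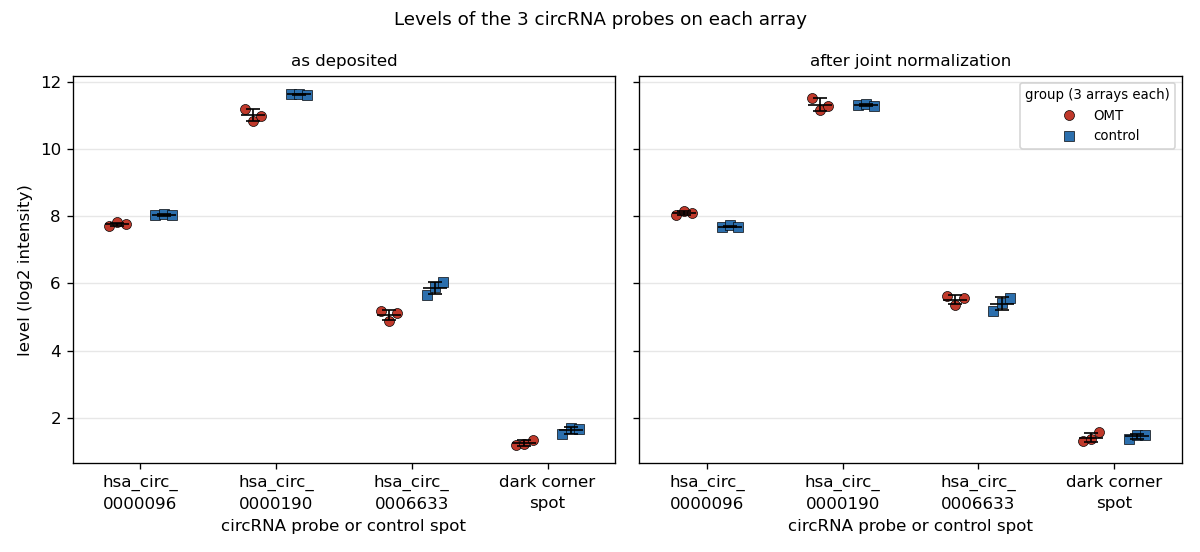
Log2 levels of the 3 circRNA probes and of the dark corner spot on each array (points), with OMT on the left of each pair and control on the right, and the mean ± SD of 3 arrays (black bars), as deposited (left panel) and after joint normalization (right panel). As deposited the OMT points of all 3 probes lie below the control points, and after joint normalization those of hsa_circ_0000096 lie above and the others overlap.

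The distance of each probe from the dark corner spot of the same array also depended on the scaling. As deposited, hsa_circ_0000096 lay 6.52 ± 0.09 above it on OMT arrays and 6.42 ± 0.09 above it on control arrays (log2, SD, n = 3), with overlapping groups and an exact two-sided permutation p of 0.2. For hsa_circ_0000190 the distance was 9.77 ± 0.22 in OMT and 10.01 ± 0.11 in controls (exact permutation p = 0.3). For hsa_circ_0006633 it was 3.81 ± 0.16 in OMT and 4.24 ± 0.11 in controls, without overlap, as for 53.1% of circBase probes (exact permutation p = 0.1, the smallest that 3 against 3 arrays allow). Adjusted over the 3 probes, each of these p was 0.3. After joint normalization the distance of hsa_circ_0000096 was 6.69 ± 0.14 in OMT against 6.26 ± 0.06 in controls, with every OMT array above every control array, as for 27.2% of circBase probes (exact permutation p = 0.1, adjusted 0.3). That of hsa_circ_0006633 was then 4.11 ± 0.19 in OMT and 3.95 ± 0.14 in controls, and that of hsa_circ_0000190 was 9.92 ± 0.28 in OMT and 9.88 ± 0.08 in controls. For both of these the groups overlapped (exact permutation p = 0.4 and 1).

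Within the circBase probes of an array, all 3 circRNAs ranked higher on every OMT array than on any control array. hsa_circ_0000096 stood at the percentiles 77.5, 78.5 and 77.7 on the OMT arrays and 70.7, 71.3 and 70.6 on the control arrays, a difference of 7.02 percentile points. The circRNA hsa_circ_0006633 stood at 45.2, 41.5 and 43.5 in OMT and 35.2, 37.8 and 39.8 in controls, a difference of 5.82. hsa_circ_0000190, near the top of the circBase probes, stood at 96.8, 96.0 and 96.3 in OMT and 95.8, 95.8 and 95.7 in controls, a difference of 0.57. For each, the exact two-sided permutation p was 0.1, and 0.1 after adjustment over the 3 probes, so the test could not pass 0.05 at this size. The same separation was seen for 39.4% of circBase probes. These ranks are relative to a family whose own median was lower in OMT under both scalings.

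Among all 175075 RNA probes, hsa_circ_0000096 alone of the 3 kept separate groups, as 28% of circBase probes did in this direction. Its percentiles averaged 85.9 ± 0.28 in OMT and 83.4 ± 0.18 in controls (SD, n = 3 each, exact permutation p = 0.1, adjusted 0.3). hsa_circ_0000190 averaged 96.7 ± 0.29 in OMT and 96.7 ± 0.03 in controls (exact permutation p = 1). hsa_circ_0006633 averaged 67.1 ± 1.12 in OMT and 66.1 ± 1.58 in controls (exact permutation p = 0.5). The ranks of these last 2 probes overlapped between the groups. Joint normalization sets each level by the probe's rank on its array. The ranks among all RNA probes thus repeat the joint result and are not separate evidence.

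**Figure D2:**
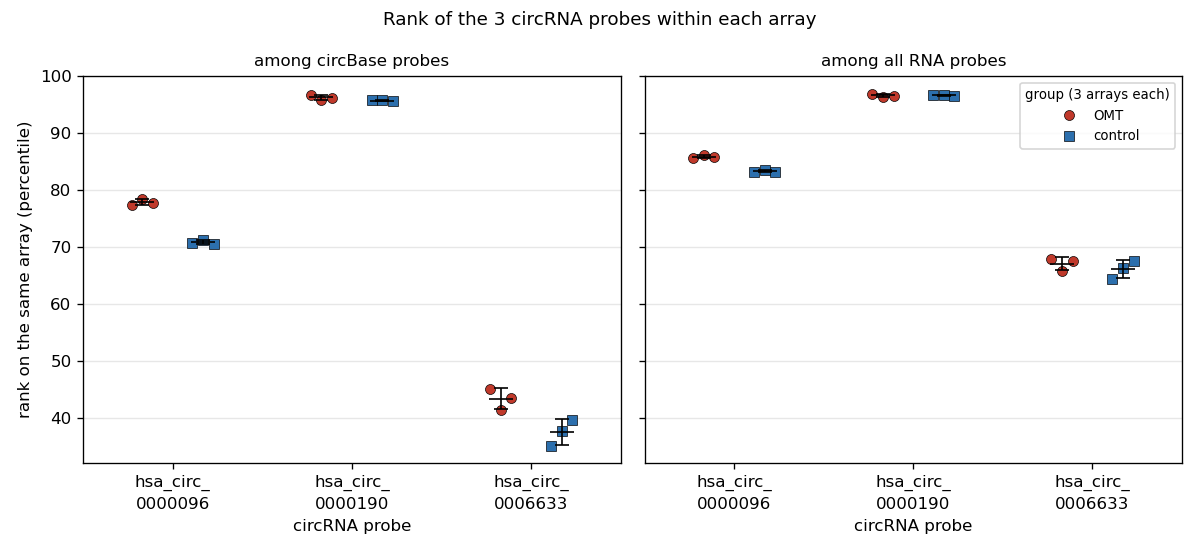
Percentile of the 3 circRNA probes within their own array (points), with OMT on the left of each pair and control on the right, and the mean ± SD of 3 arrays (black bars), among circBase probes (left panel) and among all RNA probes (right panel). Among circBase probes all OMT points lie above the control points, and among all RNA probes this holds for hsa_circ_0000096.

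The changes of the 3 probes were compared with each other within arrays, which cancels any shift common to a whole array. It does not cancel a difference between scalings that varies with level, so these differences still depended on the scaling. The change of hsa_circ_0000190 minus that of hsa_circ_0000096 was -0.35 as deposited (exact permutation p = 0.1) and -0.40 under joint normalization (p = 0.1). The change of hsa_circ_0006633 differed from that of hsa_circ_0000096 by -0.54 as deposited (exact permutation p = 0.1) and by -0.28 after joint normalization (p = 0.2). Between hsa_circ_0006633 and hsa_circ_0000190 the difference was -0.19 as deposited (exact permutation p = 0.3) and 0.12 after joint normalization (p = 0.4). Adjusted over the 3 pairs, the exact p were 0.15, 0.15 and 0.3 as deposited and 0.3, 0.3 and 0.4 after joint normalization. With 3 against 3 arrays the exact permutation test cannot go below p = 0.1, so it could not have passed 0.05 for any pair, and it says neither that the probes changed alike nor that they did not.

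In the spread of all circBase probes, the 3 changes were moderate. After joint normalization 74.2% of circBase probes had a lower change than hsa_circ_0000096, 63.7% a lower one than hsa_circ_0006633 and 58.0% a lower one than hsa_circ_0000190. All 3 thus lay in the upper part of the family without standing at its edge. The median of the 3 changes was -0.63 as deposited and 0.13 after joint normalization, beside -0.88 and -0.15 for all circBase probes.

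**Figure D3:**
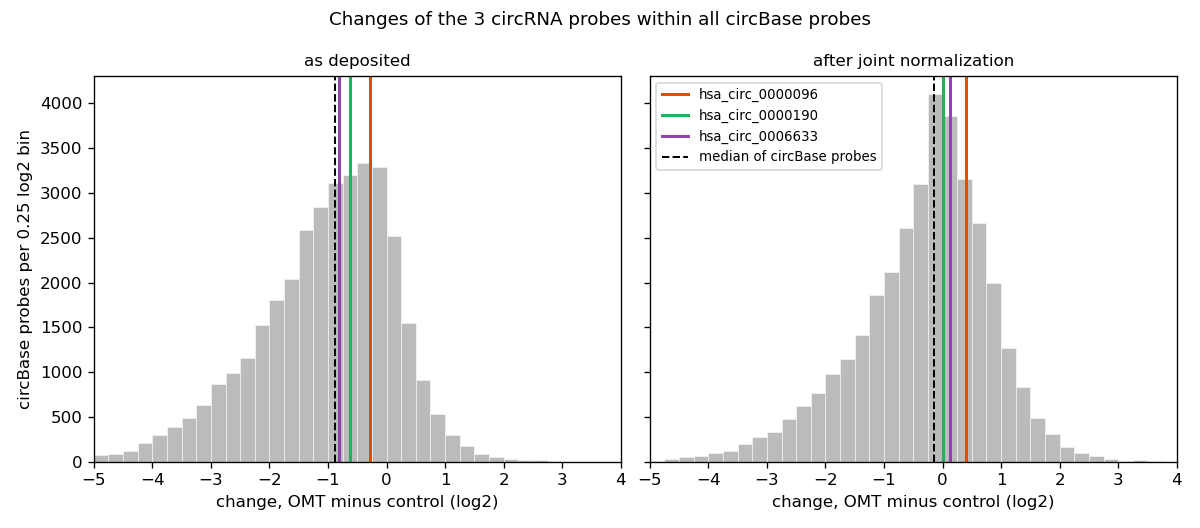
Number of circBase probes (y axis) by change, OMT minus control, in log2 bins (x axis, drawn from -5 to 4), as deposited (left panel) and after joint normalization (right panel), with the 3 circRNA probes as coloured lines and the family median as a dashed line. The 3 lines lie right of the dashed line in both panels.

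The median change of circBase probes differed between values of a number inside the probe ID, which the sources used here do not explain. It is 16 for hsa_circ_0000096, 15 for hsa_circ_0000190 and 8 for hsa_circ_0006633. After joint normalization the median change was -0.45 over the 11499 circBase probes with 16, -0.55 over the 1478 with 15 and -0.07 over the 934 with 8, beside 0.28 over the 5004 with 0. The medians for 15 and 16 were thus both below that for 8, which was below that for 0. These medians are descriptions without a test, and other values of the number are not given here. The changes of the 3 circRNAs, 0.40, 0.0057 and 0.13, were each above the median of probes with the same number. Of the probes with 16, 15.5% were called higher in OMT, as hsa_circ_0000096 was, and 43.7% lower. The part of this number in the results was not tested.

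The circBase probes most like hsa_circ_0000096 and hsa_circ_0000190 were found by the Euclidean distance over the 6 jointly normalized levels. Nearest to hsa_circ_0000096 were hsa_circ_0108506, hsa_circ_0015573 and hsa_circ_0007434, at distances of 0.139, 0.143 and 0.145. Their joint changes were 0.49, 0.37 and 0.32, each higher in OMT (limma adjusted p = 0.00266, 0.0085 and 0.0161). The call for hsa_circ_0007434 was lost without control replicate 2 (adjusted p = 0.0643). Their deposited changes were -0.19, -0.31 and -0.36, with adjusted p of 0.0568, 0.0133 and 0.00874, so their sign depended on the scaling. They were picked for joint levels close to those of hsa_circ_0000096, so a like change follows from the choice. The deposited call for hsa_circ_0015573 was lost without control replicate 2 (limma adjusted p = 0.0545). Nearest to hsa_circ_0000190 were hsa_circ_0064909, hsa_circ_0047576 and hsa_circ_0035034, at distances of 0.17, 0.19 and 0.20. Their joint changes were -0.0069, 0.0088 and -0.01, and their deposited changes were -0.64, -0.63 and -0.64. They too were picked for close joint levels, so changes like those of hsa_circ_0000190 under both scalings follow from the choice. These 3 were called lower as deposited (limma adjusted p = 0.0146, 0.00448 and 0.00216), the first of them not without control replicate 2 (adjusted p = 0.0548).

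Other circRNAs named in gastric cancer marker studies gave a wider range of changes. Of a list of 10 further IDs, 5 had a probe among those analysed here. As deposited 4 of these 5 were called lower and 1 higher in OMT, and after joint normalization 2 lower and 1 higher, with medians of -1.22 and -0.23. Among all circBase probes 62.5% were called lower as deposited, and 34.2% lower and 21.9% higher after joint normalization, so the counts of lower calls lie near these shares. hsa_circ_0001017 read 6.94, 6.78 and 7.06 in OMT and 10.96, 10.81 and 10.75 in controls as deposited, a change of -3.92, and of -3.25 after joint normalization (limma adjusted p = 3.02e-05 and 8.62e-05, n = 3 per group). hsa_circ_0065149 changed by -2.50 and -1.63 under these scalings (adjusted p = 3.96e-05 and 0.000173). In a family with 6.07% of probes called higher as deposited, hsa_circ_0000419 was higher in OMT, at 8.14, 8.52 and 8.26 against 6.81, 6.73 and 6.85 in controls as deposited, a change of 1.51, and of 2.24 after joint normalization (adjusted p = 0.000341 and 0.000179). hsa_circ_0061276 and hsa_circ_0138960 were lower as deposited, by -1.16 and -1.22, and did not pass the test after joint normalization (-0.23 and -0.19). Without OMT replicate 3 the joint change of hsa_circ_0061276 was -0.41 (limma adjusted p = 0.0411), and the deposited call of hsa_circ_0138960 was lost without control replicate 1 or 3 (adjusted p = 0.0579 each). hsa_circ_0001017, hsa_circ_0065149 and hsa_circ_0000419 each kept a direction and a call under the deposited, joint and centred scalings, which the 3 listed circRNAs did not. The share of circBase probes that did the same was not counted, so this is not shown to set them apart. Since centring only moved every deposited change by the same amount, the centred calls are not separate evidence from the deposited ones.

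**Figure D4:**
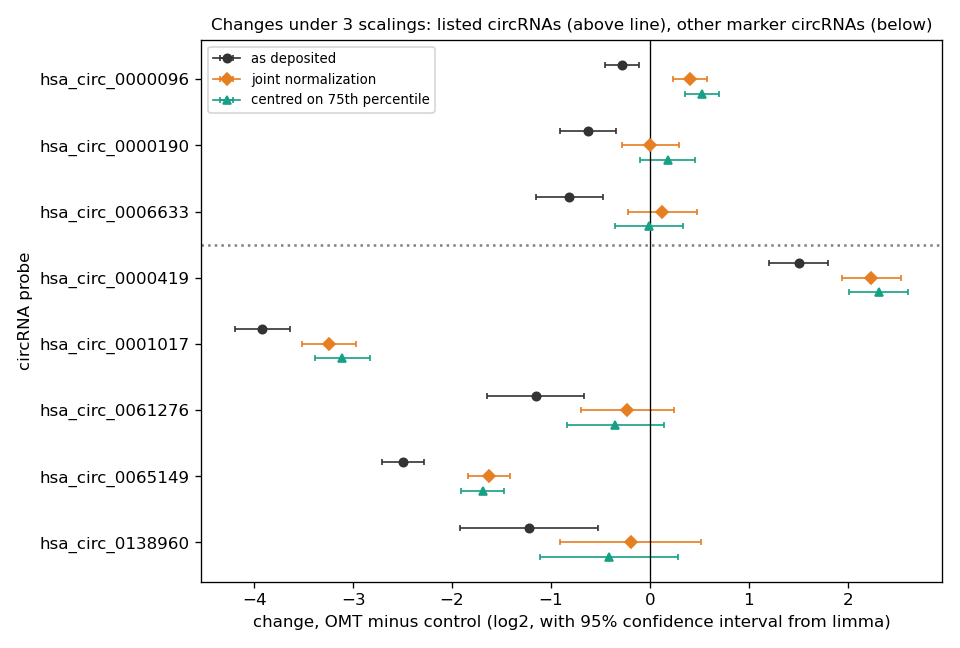
Change, OMT minus control, on the log2 scale with its 95% confidence interval from limma (x axis) for the 3 listed circRNAs (above the dotted line) and the 5 other marker circRNAs (below it), under 3 scalings (marker shapes). The 3 listed circRNAs lie between -0.81 and 0.53, and hsa_circ_0000096 has intervals on opposite sides of 0.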

How the data were processed

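Cy3-labelled cRNA from 6 cultures was hybridised to single-colour Agilent arrays, per the labels' protocols, and Agilent Feature Extraction was used, as the submitters' processing notes list it. The deposited values are log2 intensities that the authors normalized by a method not given in the sources used here; base 2 was inferred from their range. All 6 columns matched a sample, and the tests leave out 68 control spots. Depth does not apply to arrays, and the number of arrays limits the precision. Scan batches were not analysed here.

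Groups were compared per probe with limma 3.58.1 in R 4.3.3 (two-sided, with treatment as the single term); p-values were adjusted by Benjamini-Hochberg over 175075 probes, with a threshold of 0.05. Joint normalization used limma's normalizeQuantiles over all rows of the 6 arrays. Ranks and differences between probes were compared with exact permutation tests over the 20 labelings of the arrays, two-sided. The fit was tested on simulated data. The listed circRNAs and the list of further markers were chosen with earlier results of these data known. All probes of the listed IDs are named, with the 3 nearest circBase probes of the members with the largest and the smallest joint change. A planned comparison of several probes per ID was void, since 0 IDs had more than 1. Figures were drawn with matplotlib 3.10.9.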

Additional observations from a re-analysis of the deposited data

How the results depend on the processing

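The counts of called circRNA probes depended on the scaling and on a fold threshold. Of the 3 listed probes, 3 were lower in OMT as deposited, but 0 after joint normalization, 0 after centring and 0 with an added 2-fold threshold; 0 were higher as deposited, 1 with joint normalization and 1 with centring, and with the 2-fold threshold the joint count became 0. Of the 5 further markers, 4 were lower as deposited, and both joint normalization and centring left 2. Stricter thresholds follow by construction. The cause of the difference between scalings was not tested.

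As deposited, the change turned sign after joint normalization for hsa_circ_0000096 (0.40), hsa_circ_0000190 (0.0057), hsa_circ_0006633 (0.13), hsa_circ_0108506 (0.49), hsa_circ_0015573 (0.37), hsa_circ_0007434 (0.32) and hsa_circ_0047576 (0.0088). After centring it turned for hsa_circ_0000096 (0.53), hsa_circ_0000190 (0.18), hsa_circ_0108506 (0.62), hsa_circ_0015573 (0.50), hsa_circ_0007434 (0.45), hsa_circ_0064909 (0.17), hsa_circ_0047576 (0.18) and hsa_circ_0035034 (0.17).

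After joint normalization, hsa_circ_0000096 kept its direction and call under all 11 other settings, with changes from 0.38 to 0.42 and adjusted p from 0.0035 to 0.0394. hsa_circ_0006633 kept its sign and missed the threshold in all 11. hsa_circ_0000190 missed it in all 11, with a change of -0.019 under array weights and of -0.095 to 0.091 without 1 array. Without 1 array, the joint change ranged from -0.13 to 0.12 for hsa_circ_0064909, -0.047 to 0.098 for hsa_circ_0047576, -0.065 to 0.037 for hsa_circ_0035034 and -0.41 to 0.081 for hsa_circ_0138960.

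The replicate numbers alone do not show whether same-numbered arrays were handled together. The correlations of same-numbered arrays' deviations over 87537 probes were 0.03, -0.11 and 0.01. They were not set beside those of differently numbered arrays, so they cannot settle whether the arrays were paired. With the replicate block, all 3 listed probes had the same changes, and hsa_circ_0000096 as deposited missed the threshold (-0.28, adjusted p = 0.0758), as did hsa_circ_0015573 and hsa_circ_0007434 under both scalings and hsa_circ_0064909 as deposited. The differences, percentiles and distances to the dark corner, and the settings for the further markers and nearest probes, were chosen after seeing the data. Counts of probes above the dark corner stayed at 3 with the median of the dark corner and structural negative spots as the floor.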
